A study of Mus musculus with 4 samples.

Results

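The 4 genes described here, Maged1, Maged2, Mageh1 and Magee1, belong to the type II MAGE genes and are relatives of necdin, the protein encoded by Ndn. They were chosen by name, as relatives that could compensate for the loss of necdin, by a rule that did not use their values. Earlier results of these data were known when the choice was made. Every probe set whose platform annotation gave 1 gene symbol equal to a member was taken, which gave 5 of the 45101 probe sets on the array and 4 of the 18193 genes named. Maged2 had 2 probe sets and each other member had 1. The main probe set of a gene was the one with the highest mean log2 signal.

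The series holds 4 Affymetrix arrays, 2 of necdin null and 2 of wild type cells. In the necdin null group, Lin-Sca-1+c-Kit+ (LSK) cells were taken from the bone marrow of C57BL/6 mice whose blood system had been rebuilt with necdin null fetal liver cells. In the wild type group, the fetal liver cells used for reconstitution were wild type. LSK cells are a bone marrow fraction rich in stem and early progenitor cells. All 4 samples came from mice given a sublethal dose of 6.5 Gy, so no array shows the members without irradiation. How long after irradiation the cells were taken, which part of Ndn was deleted, the age of the mice and whether LSK cells of the host remained are not given in the sources used here. Replicates are numbered, but the labels do not tie a replicate to an animal, so a p-value here covers the spread between arrays alone, some of which may be technical.

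MAGE proteins share a conserved MAGE homology domain. Several of them bind RING-type E3 ubiquitin ligases and change what those ligases act on. In humans the type I genes lie on the X chromosome and are mostly silent outside the germ line and tumours, while the type II genes, necdin among them, are expressed in many normal tissues. Necdin is a growth suppressor first studied in neurons, where it binds E2F1 and p53. It is also known to restrain the cycling of haematopoietic stem cells. Ndn itself is imprinted and expressed from the paternal allele.

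All 4 members are X-linked in the RefSeq annotation of GRCm38.p6, whereas Ndn is on chromosome 7. Maged1, which encodes an adaptor of the p75 neurotrophin receptor, lies at chrX:94535474-94542025. Magee1, which encodes a MAGE protein that binds the dystrobrevins in mouse muscle and brain, lies at chrX:105120378-105123961. Maged2 lies at chrX:150806421-150814362, and its human counterpart is needed for salt reabsorption in the fetal kidney. Mageh1 encodes a short MAGE protein and lies at chrX:153036166-153037563.

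Windows of 250 bases before to 50 bases after the annotated start, from RefSeq and read on the strand of the gene, are shown. Those of Maged1, Maged2 and Ndn share a feature that the choice of genes did not use. Capitals mark the letters GCATGCGC or their reverse complement GCGCATGC, which overlap in the palindromic site known for the transcription factor NRF1. The search covered both strands, and the letters were chosen after the windows had been read, so finding them in these windows is no test.
Maged1, chrX:94541976-94542275, minus strand: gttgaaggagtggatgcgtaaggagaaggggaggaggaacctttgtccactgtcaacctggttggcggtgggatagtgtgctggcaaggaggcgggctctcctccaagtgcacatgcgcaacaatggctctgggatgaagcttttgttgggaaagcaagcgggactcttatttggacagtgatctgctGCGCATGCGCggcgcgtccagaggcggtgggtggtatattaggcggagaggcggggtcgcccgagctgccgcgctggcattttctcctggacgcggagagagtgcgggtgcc
Maged2, chrX:150812953-150813252, minus strand: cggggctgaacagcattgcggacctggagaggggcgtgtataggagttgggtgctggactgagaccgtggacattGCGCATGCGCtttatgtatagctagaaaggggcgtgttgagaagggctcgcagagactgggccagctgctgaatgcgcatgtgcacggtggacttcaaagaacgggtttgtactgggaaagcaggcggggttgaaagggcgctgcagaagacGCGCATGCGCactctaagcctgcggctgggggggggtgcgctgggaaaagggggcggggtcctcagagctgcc
Mageh1, chrX:153037514-153037813, minus strand: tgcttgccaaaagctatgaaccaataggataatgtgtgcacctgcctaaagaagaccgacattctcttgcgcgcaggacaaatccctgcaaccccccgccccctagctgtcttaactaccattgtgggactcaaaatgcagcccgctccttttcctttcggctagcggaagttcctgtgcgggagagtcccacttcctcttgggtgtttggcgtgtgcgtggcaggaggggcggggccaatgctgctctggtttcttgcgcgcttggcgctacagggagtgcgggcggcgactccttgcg
Ndn, chr7:62348027-62348326, plus strand: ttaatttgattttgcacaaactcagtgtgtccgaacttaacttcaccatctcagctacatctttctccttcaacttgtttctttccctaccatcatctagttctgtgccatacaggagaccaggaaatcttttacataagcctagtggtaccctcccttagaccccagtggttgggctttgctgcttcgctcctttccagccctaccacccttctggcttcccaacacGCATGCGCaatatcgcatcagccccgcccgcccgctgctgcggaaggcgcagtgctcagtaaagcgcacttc
The first marked base is at -62 relative to the start in Maged1, at -175 in Maged2 and at -22 in Ndn. Of the 4 annotated windows of Maged2, those that begin at 150812930 and 150812953 hold the letters, and they overlap each other. Nsmce3, another type II MAGE gene, also holds them, while the windows of Mageh1, Magee1 and Magel2 do not. Over all genes with such a window, 3.05% have at least 1 window with these letters (824 of 27025), and of the windows on the X chromosome 3.19% hold them. A match is a description of the letters and no evidence of binding. The printed windows have 20 CpG dinucleotides in Maged1, 19 in Maged2, 18 in Mageh1 and 11 in Ndn, and the window of Magee1 has 14, against a median of 7 over all windows. The windows of Maged2 that begin at 150813658 and 150814296, which do not overlap the printed one, have 9 and 8.

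Before the members, Ndn was examined in every sample, since it checks the genotype labels. Its main probe set, 1437853_x_at, gave signals of 55.4 and 105 in necdin null cells, against 253 and 255 in wild type cells, with replicate 1 given first here and for every pair of signals. The lowest log2 difference among the Ndn probe sets was that of 1435383_x_at, with signals of 1.74 and 4.86 in necdin null cells, against 504 and 329 in wild type cells. Of the 8 Ndn probe sets, with no filter on low values, 6 had groups that did not overlap and were lower in necdin null cells, as did 15.4% of all 45101 probe sets. In the other 2 the groups overlapped at low signals: 1438939_x_at gave 1.89 and 7.24 in necdin null cells, against 5.26 and 28.3 in wild type cells, and 1456575_at gave 27.99 and 2.98 in necdin null cells, against 1.54 and 5.99 in wild type cells. By the main probe set, no array went against its label, although that probe set had a log2 difference of -1.68 (standard error 0.46) that did not pass over all genes (limma adjusted p = 0.999).

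The sorted phenotype was checked against marker genes. Kit, the receptor of the gate, had signals of 6049 and 3744 in necdin null cells and 6617 and 3976 in wild type cells, and Cd34, a progenitor surface protein, lay between 13407 and 15252 on all 4 arrays. Ly6a, which encodes Sca-1, had no probe set with 1 symbol and was not analysed here. Of the 6 T and NK lineage markers measured, Cd3e, between 11.8 and 37.8, and 3 others were below the filter on low values, while Cd8a reached 64.0 and Nkg7, a granule gene of cytotoxic cells, lay between 3047 and 4045. Of the 7 B lineage markers measured, 6 were above the filter. Cd79b, a part of the B cell receptor, had 694 and 853 in necdin null cells and 767 and 1231 in wild type cells. Ms4a1, which encodes CD20, had 154 and 286 in necdin null cells and 95.4 and 592 in wild type cells. On any array, Pax5 reached at most 56.3, Ebf1 63.3 and Igll1 84.5, while Vpreb1 lay between 158 and 242. Cd79a was below the filter, at 17.1 and 32.6 in necdin null cells and 1.90 and 68.7 in wild type cells. The lineage-negative gate would remove mature myeloid cells. All 11 neutrophil markers measured were above the filter. Among them, S100a8 had 22732 and 55148 in necdin null cells and 14736 and 35494 in wild type cells. Cxcr2 had 153 and 222 in necdin null cells and 27.3 and 176 in wild type cells. Of the 7 monocyte and macrophage markers measured, 6 were above the filter. Itgam was below it, at 15.2 and 44.8 in necdin null cells and 22.2 and 24.9 in wild type cells. In bulk samples, fewer cells of a type and less RNA per cell cannot be told apart. The 3' to 5' signal ratio of Gapdh, a sign of RNA quality, was highest on necdin null replicate 2, at 15.8, with 10.96 on the other necdin null array and 9.96 and 11.7 for wild type cells. The 3' signal thus far exceeded the 5' signal on every array, not on that array alone.

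The comparison of necdin null with wild type cells asks whether relatives of necdin differ in level when necdin is missing. All 4 members were above the filter in these cells, and none passed the test. Their median log2 difference was 0.09, against -0.03 over all 12679 genes tested. In 3 of 4 members the difference was above 0, as it was for 45.9% of all genes. Of all genes, 0 passed at a limma adjusted p of 0.05 (0% of genes called, and 0.0237% with the replicate number as a block), and 383 had an unadjusted p under 0.05, which is 3.02%. No member was among these 383. With 2 arrays a group, the smallest two-sided p of an exact permutation test is 0.333, so the limma fit over all genes is the test given.

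**Figure D1:**
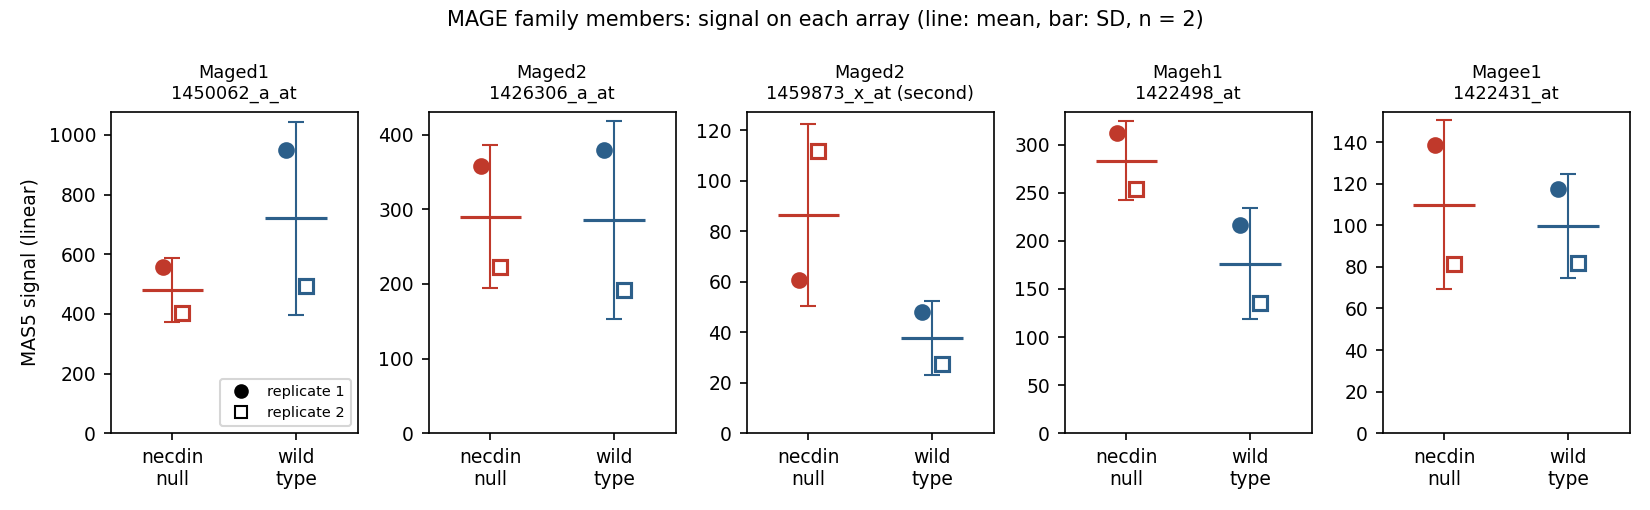
Linear MAS5 signal (vertical axis, from 0) of the 5 probe sets of the 4 members on each array, necdin null left and wild type right; horizontal lines are means and bars are SD (n = 2). Mageh1 and the second probe set of Maged2 have necdin null arrays above both wild type arrays, and for the main probe sets the filled circle, replicate 1, is the higher array of each group.

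Mageh1 was the only member whose main probe set separated the groups. Its probe set 1422498_at gave 312 and 254 in necdin null cells, against 217 and 136 in wild type cells. Both necdin null arrays were thus above both wild type arrays, but the gap between 254 and 217 was smaller than the difference between the replicates of either group. The means were 283 ± 41.1 in necdin null and 176 ± 57.4 in wild type cells (SD, n = 2 each). The log2 difference was 0.70 with a standard error of 0.39 (limma adjusted p = 0.999), which corresponds to a 1.63-fold higher level with a 95% interval of 0.879-fold to 3.01-fold. Groups that do not overlap, with necdin null higher, were found for 12.8% of all genes, and 1 of 4 members says nothing about the members as a group beyond that background. Between the arrays numbered 1 the difference was 0.52, and between those numbered 2 it was 0.89. Leaving out wild type replicate 2 gave a difference of 0.37, and leaving out wild type replicate 1 gave 1.03.

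Maged1, whose product also binds the apoptosis inhibitor XIAP and the ligase Praja-1, had the lowest log2 difference of the members. The signals of 1450062_a_at were 556 and 403 in necdin null cells, against 950 and 492 in wild type cells. One wild type array stood far above the other 3, and the necdin null value of 556 exceeded the wild type value of 492, so the groups overlapped. The means were 479 ± 108 in necdin null and 721 ± 324 in wild type cells (SD, n = 2 each). On the log2 scale the difference was -0.53 with a standard error of 0.35 (limma adjusted p = 0.999), a ratio of 0.694 with a 95% interval of 0.399 to 1.21. On the log2 scale the interval ran from -1.33 to 0.27. Without the trend of the variance with signal level it ran from -1.60 to 0.55, so its upper end depended on the model. The value rested on wild type replicate 1: without that array the difference was -0.06, while dropping wild type replicate 2 gave -0.9996. It was -0.30 without necdin null replicate 2 and -0.76 without necdin null replicate 1.

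Maged2 was measured by 2 probe sets that gave different answers. The main probe set, 1426306_a_at, gave 358 and 222 in necdin null cells, against 379 and 192 in wild type cells. The necdin null values lay inside the range of the wild type values, and the replicates within a group differed more than the groups did. The log2 difference was 0.06 with a standard error of 0.43 (limma adjusted p = 0.999), or 1.04-fold with a 95% interval of 0.532-fold to 2.05-fold.

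The second Maged2 probe set, 1459873_x_at, gave signals of 60.8 and 112 in necdin null cells, against 47.9 and 27.4 in wild type cells. Here both necdin null arrays were above both wild type arrays, as for 15.4% of the 27003 probe sets tested. In the fit of all probe sets its log2 difference was 1.11 with a standard error of 0.63 and a 95% interval of -0.35 to 2.57 (limma adjusted p = 0.995), where 0% of probe sets were called and 941 (3.48%) had an unadjusted p under 0.05. The suffix _x_at marks probe sets that may also bind transcripts of other genes. Leaving out 1 array moved this difference to between 0.69, without necdin null replicate 2, and 1.53, without necdin null replicate 1. Taking the median of both probe sets as the level of Maged2 gave a log2 difference of 0.58. For the main probe set the direction turned without necdin null replicate 1, at -0.28, and without wild type replicate 2, at -0.42.

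Magee1 was above the filter, which lies at a signal of 30.3, on every array. Probe set 1422431_at gave 139 and 81.2 in necdin null cells, against 117 and 81.9 in wild type cells. The lower array of each group had nearly the same signal. The mean was 110 ± 40.7 in necdin null and 99.6 ± 25.2 in wild type cells (SD, n = 2 each). The log2 difference was 0.11 with a standard error of 0.50 (limma adjusted p = 0.999), or 1.08-fold with a 95% interval of 0.488-fold to 2.39-fold. It was -0.26 without necdin null replicate 1 and -0.14 without wild type replicate 2.

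**Figure D2:**
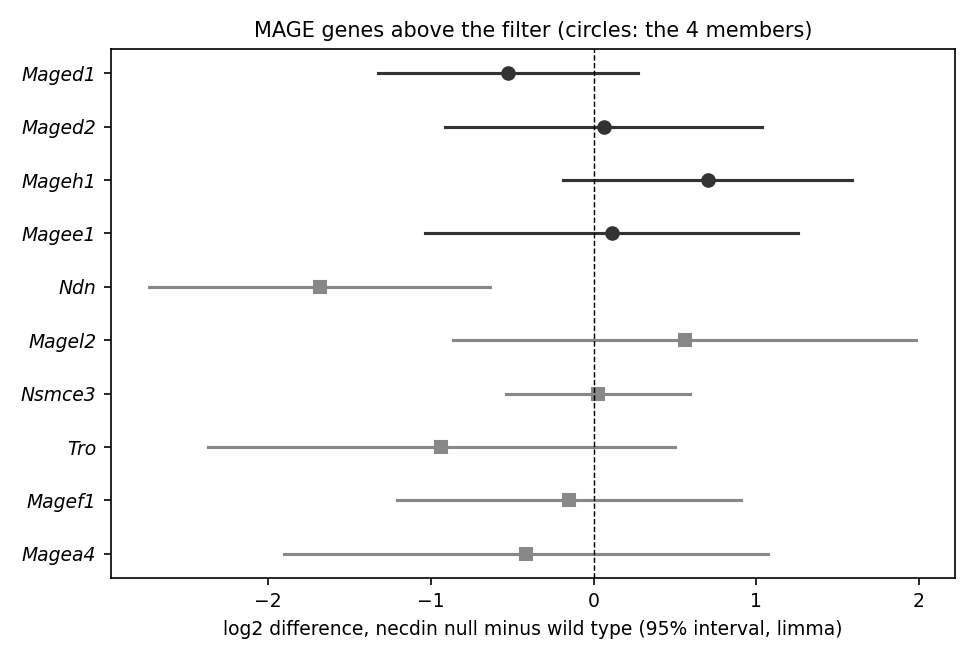
Log2 difference, necdin null minus wild type (horizontal axis), with 95% intervals from limma for the 4 members (circles) and for the other MAGE genes above the filter (squares). The intervals of the 4 members all include 0, from -1.33 to 0.27 for Maged1 and from -0.19 to 1.59 for Mageh1, and that of Ndn lies below 0.

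Within each genotype, the 4 members differed between the replicates in the same direction. The labels do not tie a number in the necdin null group to the same number in the wild type group. Counts over both groups therefore depend on the numbering. In all 8 comparisons of 2 arrays within a group, 2 for each member, the array numbered 1 had the higher signal of the main probe set. The ratio of replicate 1 to replicate 2 in necdin null and wild type cells was 1.38 and 1.93 for Maged1 and 1.61 and 1.97 for Maged2. It was 1.23 and 1.60 for Mageh1 and 1.71 and 1.43 for Magee1. The second probe set of Maged2 did not follow this, with ratios of 0.544 in necdin null and 1.75 in wild type cells. Over all genes tested, 29% were higher on the array numbered 1 in both groups and 27.3% were lower there in both. Of the 412 X-linked genes tested, 123 were higher in both, which is 29.9%.

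Marker genes also differed between the replicates of a group, and their part in the members' values was not tested. Here too, counts over both groups depend on the numbering. Of the 10 LSK and stem cell markers, 7 were higher on the array numbered 1 in both groups, among them Hlf, a stem cell transcription factor, at 4997 and 2674 in necdin null cells and 6110 and 2637 in wild type cells. The summed signal of that list was 42394 and 39415 in necdin null cells and 48367 and 36409 in wild type cells. The neutrophil markers went the other way, with 10 of 11 lower on the array numbered 1 in both groups and sums of 80435 and 179506 in necdin null cells and 58328 and 123130 in wild type cells. None of the 11 was below the filter. Between the genotypes, all 11 neutrophil markers had differences above 0, with a median log2 difference of 0.60 and 0 passed, and the LSK list was split 5 and 5 with a median of -0.05. The medians of the other marker lists lay between -0.37, for mast cell and basophil markers, and 0.11, for T and NK lineage markers, with 0 passed. Of 5 endothelial markers above the filter, 3 (Tek, Emcn and Esam) were higher on the array numbered 1 in both groups and 0 were lower in both. Kdr and Pecam1 were higher on that array in necdin null cells only. The endothelial sums were 1832 and 1003 in necdin null cells and 1792 and 1193 in wild type cells. Most of each sum came from Esam alone, at 1039 and 652 in necdin null cells and 1172 and 687 in wild type cells. Cdh5, a defining endothelial marker, was below the filter, at 49.8 and 38.6 in necdin null cells and 19.6 and 16.4 in wild type cells. Stromal markers were split 1 and 1 among 4 above the filter, with Col1a1, Col3a1, Lepr and Pdgfra below it. The list had sums of 2244 and 2241 in necdin null cells and 2562 and 2454 in wild type cells, most of which came from Pdgfrb alone, at 2004 and 1964 in necdin null cells and 2344 and 2134 in wild type cells. Cxcl12, a chemokine of marrow stroma, had 61.6 and 48.3 in necdin null cells, against 14.1 and 25.4 in wild type cells, so its groups did not overlap (a difference on the log2 scale of 1.35, standard error 0.67). The groups of Pdgfrb and Col1a2 were apart in the other direction. Col1a2 had 41.3 and 59.0 in necdin null cells, against 89.7 and 98.6 in wild type cells (-0.88, standard error 0.53). Over all genes, groups were apart for 12.8% as higher and 17.7% as lower in necdin null cells.

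**Figure D3:**
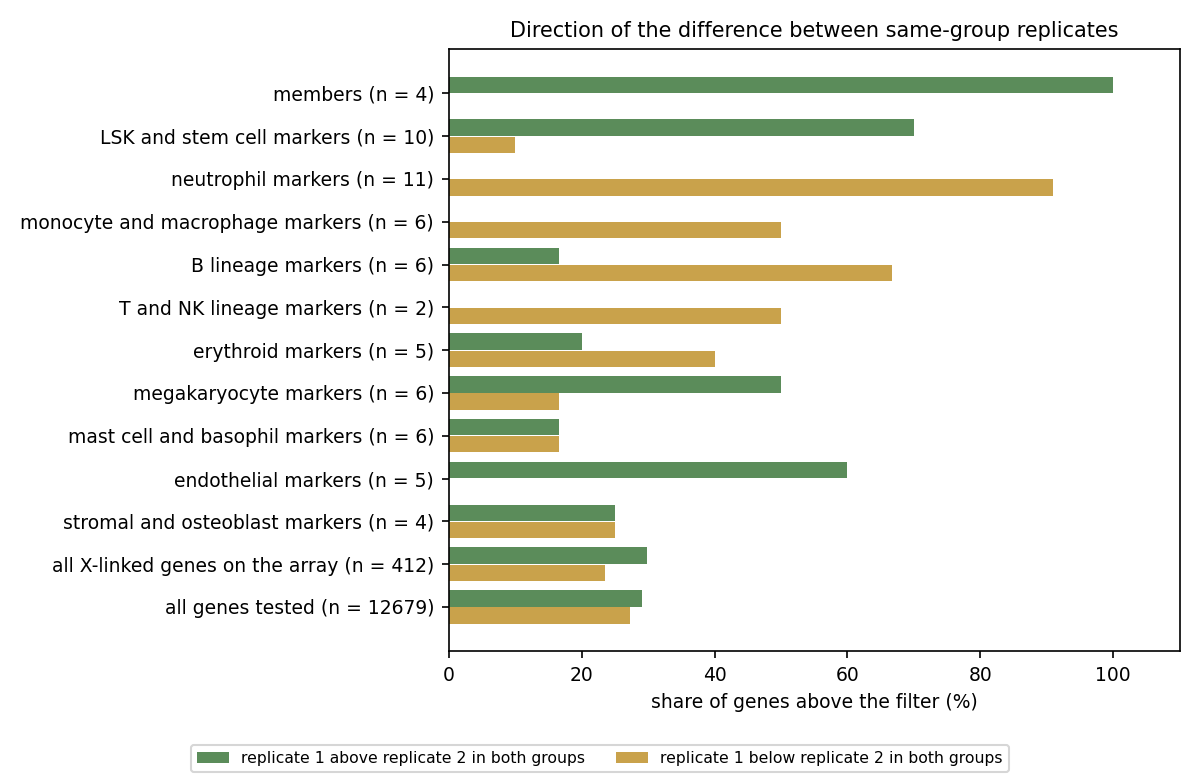
Share of genes above the filter (horizontal axis, percent) that were higher (green) or lower (ochre) on the array numbered 1 than on the array numbered 2 in both groups, for the 4 members, each marker list, the X-linked genes and all genes. The members stand at 4 of 4 higher and the neutrophil markers at 10 of 11 lower, against 29% and 27.3% of all genes. The labels do not tie the numbers of the groups to each other.

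Since the members are X-linked, the sex-linked signals are given beside them. Xist, the RNA that coats the inactive X chromosome, had 4841 and 76.8 in necdin null cells, against 9930 and 7182 in wild type cells. The Y-linked gene Eif2s3y had 2273 and 2987 in necdin null cells, against 32.6 and 1974 in wild type cells. The groups of the Y-linked genes Kdm5d and Uty overlapped. Kdm5d had 355 and 476 in necdin null cells, against 1.93 and 356 in wild type cells. Uty had 485 and 160 in necdin null cells, against 6.59 and 383 in wild type cells. Necdin null replicate 1 and wild type replicate 2 thus had high signals of both Xist and the Y-linked genes. The necdin null arrays were most unlike each other in Xist, and the wild type arrays in the Y-linked genes. For Xist the array numbered 1 was the higher one of each group. X-linked genes as a whole had a median log2 difference of 0.02 over 412 genes, against -0.03 over all genes. The difference was above 0 for 53.4% of them, against 45.9% of all genes. With groups apart, 68 were higher and 66 lower, where 12.8% of all genes were apart as higher. Of 4 genes known to escape X inactivation, 3 were lower in necdin null cells with groups apart, including Eif2s3x at 5634 and 5644 in necdin null cells, against 9584 and 8116 in wild type cells (a difference on the log2 scale of -0.64, standard error 0.19, limma adjusted p = 0.999). Groups apart and lower in necdin null cells were found for 17.7% of all genes. The part of the sex-linked difference in the members' values was not tested.

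The likeness of other genes to each member was measured as the root mean square difference between profiles over the 4 arrays, each profile being log2 values minus their own mean. Nearest to Maged1 were Socs7 at 0.013, Dph2 at 0.022 and Mycn at 0.039. For Mageh1 they were Diras2 at 0.024, Coa4 at 0.046 and Abcb4 at 0.056. Sestd1 at 0.030, Kcnd1 at 0.031 and Ankrd54 at 0.037 were nearest to Maged2, and Zfp866 at 0.021, Ptms at 0.026 and Fzd7 at 0.033 were nearest to Magee1. With only 4 arrays such matches are common: 13 genes lay within 0.1 of Maged1, 41 of Maged2, 11 of Mageh1 and 90 of Magee1. Among the members, Maged2 and Magee1 were the closest pair at 0.17, and Maged1 and Mageh1 the most distant at 0.63.

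Other type II MAGE genes showed no call either. Of the 5 with a probe set of 1 symbol, Ndn included, all were above the filter, 2 were higher and 3 lower, and the median log2 difference was -0.15. Magel2, an imprinted neighbour of Ndn whose protein works with TRIM27 and USP7 in endosome sorting, had 41.2 and 85.0 in necdin null cells, against 33.8 and 45.0 in wild type cells (a difference on the log2 scale of 0.56, standard error 0.63). Nsmce3, the MAGE subunit of the SMC5/6 complex, which acts in DNA repair, had 640 and 684 in necdin null cells, against 729 and 578 in wild type cells. Its log2 difference of 0.03 had the narrowest interval of the MAGE genes, from -0.54 to 0.59. Tro, which encodes trophinin, had 50.9 and 22.0 in necdin null cells, against 64.3 and 72.1 in wild type cells, so its groups did not overlap (-0.94, standard error 0.63). Groups apart and lower in necdin null cells were found for 17.7% of all genes. The other Tro probe set, 1421201_a_at, was below the filter and its groups overlapped, at 39.0 and 5.24 in necdin null cells, against 12.9 and 44.1 in wild type cells. Magef1 had 118 and 145 in necdin null cells, against 197 and 107 in wild type cells (-0.15, standard error 0.47). For the main probe set of each of these genes the adjusted p from limma was 0.999.

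Type I MAGE genes were at or near the low end of the signal. Of the 21 listed, 5 had a probe set of 1 symbol, and only Magea4 was above the filter, with 32.8 and 22.8 in necdin null cells and 36.2 and 39.6 in wild type cells. Magea5, Magea6, Mageb3 and Mageb16 were below it, with signals of at most 37.5 on any array.

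Genes whose products bind necdin or MAGE proteins were described as a list. Of 27 listed, 26 had a probe set of 1 symbol and 21 were above the filter; 12 were higher and 9 lower, 3 in each direction with groups apart, and 0 passed. The median log2 difference was 0.04, against -0.03 over all genes, where groups were apart for 12.8% as higher and 17.7% as lower. Pja1, the gene of the Maged1 partner Praja-1, had 822 and 672 in necdin null cells, against 1080 and 617 in wild type cells (a difference on the log2 scale of -0.14, standard error 0.30). Like Maged1, it was highest on wild type replicate 1. Xiap had 3411 and 3159 in necdin null cells, against 3090 and 3298 in wild type cells (0.04, standard error 0.18). Ngfr, the p75 neurotrophin receptor bound by Maged1 and necdin, was below the filter, at 8.67 and 31.8 in necdin null cells and 21.3 and 36.0 in wild type cells.

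The smallest unadjusted p of the partner list was that of Foxo1, a transcription factor that necdin keeps deacetylated through SIRT1 in mouse neurons. It had 663 and 807 in necdin null cells, against 1087 and 951 in wild type cells, with a log2 difference of -0.47 (standard error 0.23, limma adjusted p = 0.999). Fez1, the gene of a neuronal transport adaptor, came next, at 25.8 and 19.1 in necdin null cells, against 52.8 and 36.0 in wild type cells (-0.87, standard error 0.67). Both had groups that did not overlap. E2f1, which encodes a cell cycle factor bound by necdin, had 399 and 446 in necdin null cells, against 382 and 484 in wild type cells (-0.03, standard error 0.29).

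In the SMC5/6 complex, in which the MAGE protein Nsmce3 pairs with the RING protein Nsmce1, 6 of 7 genes with a probe set were above the filter. Of these 4 were higher and 2 lower, 0 passed, and the median log2 difference was 0.06. Nsmce1 had 5486 and 5588 in necdin null cells, against 4748 and 5249 in wild type cells (0.15, standard error 0.18). Nsmce4a, a further subunit, had 3890 and 3745 in necdin null cells, against 3135 and 3547 in wild type cells (0.19, standard error 0.18). Smc5, one of the arms of the complex, had 627 and 714 in necdin null cells, against 1011 and 705 in wild type cells (-0.33, standard error 0.26).

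**Figure D4:**
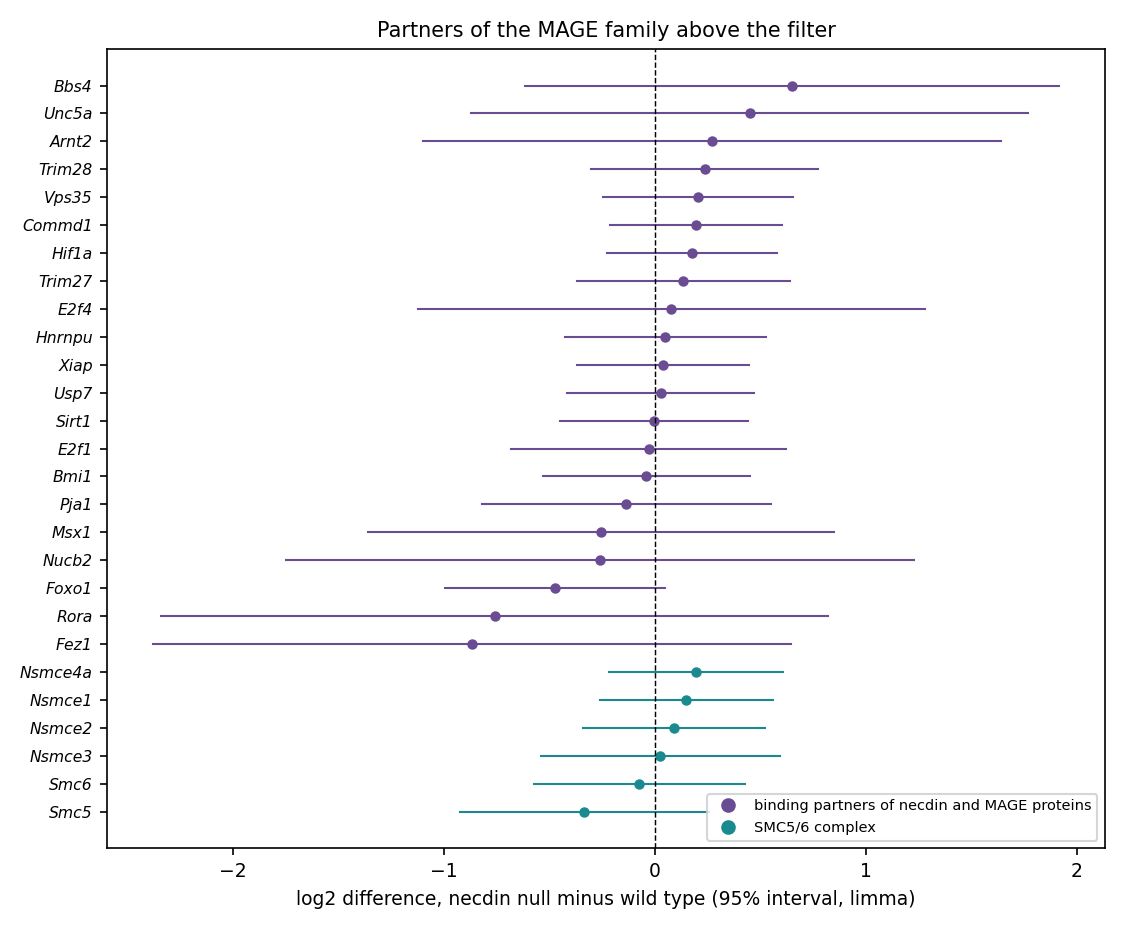
Log2 difference, necdin null minus wild type (horizontal axis), with 95% intervals from limma for the 21 binding partners and the 6 SMC5/6 genes above the filter, each group in order of its difference. All intervals include 0. The widest is that of Rora, from -2.34 to 0.82, with signals of 35.6 and 171 in necdin null cells and 164 and 114 in wild type cells. That of Fez1, at 25.8 and 19.1 in necdin null cells, runs from -2.38 to 0.65.

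**Figure D5:**
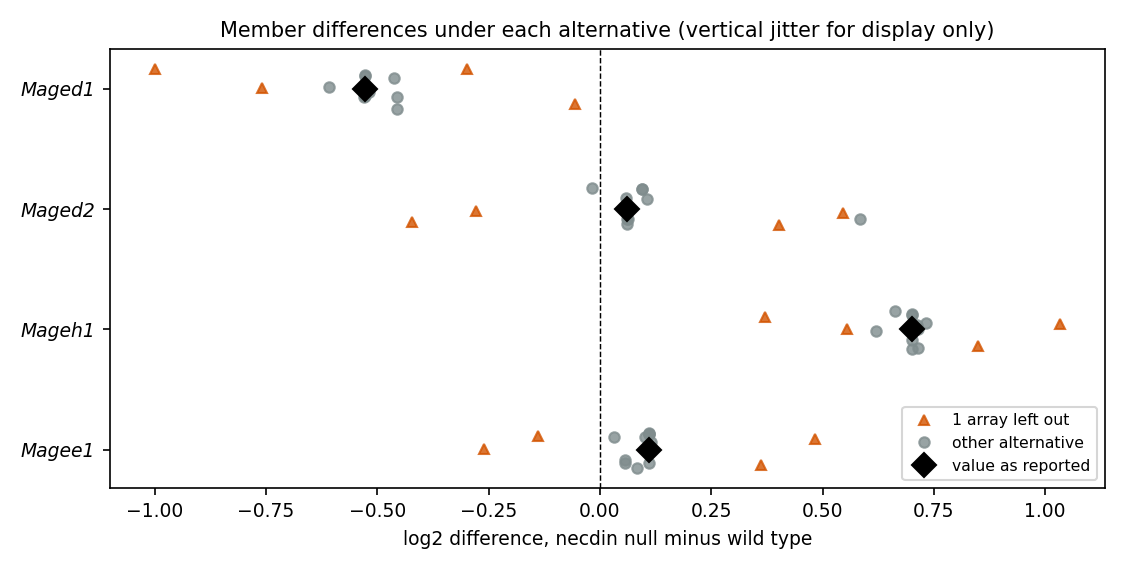
Log2 difference, necdin null minus wild type (horizontal axis), of the main value (diamond) and of each alternative (triangles: 1 array left out; circles: other settings). Leaving out 1 array spreads Maged1 from -0.9996 to -0.06 and Mageh1 from 0.37 to 1.03, more than the other settings do for these genes.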

How the data were processed

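According to the submitters' processing notes, the deposited intensities are MAS5 signals; version, genome build and detection calls are not given in the sources used here. Signals are linear, and the mean after trimming 2% at each end is 500.004 on every array. The platform annotation named the probe sets (34958 with 1 symbol, 932 with several, 9211 with none), and all 4 members matched RefSeq GRCm38.p6 by gene identifier. Values were analysed as log2(signal + 3.80), the pseudocount being the 10th percentile of all values, so differences of low genes are understated. Genes whose main probe set reached the 40th percentile of probe set means (log2 value 5.09) were kept. The groups were compared by limma 3.58.1 in R 4.3.3 (lmFit and trended eBayes, two-sided, Benjamini-Hochberg over all genes, threshold 0.05), and the code was tested on simulated data. The number of arrays limits the precision.

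The members and gene lists were chosen with earlier results of these data known. Named were the members, other type II and filtered type I MAGE genes, partners of single members, the 2 partners and 2 SMC5/6 genes of smallest p, sex-linked and marker genes, and the 3 nearest profiles. E2f1, Hlf, S100a8, Eif2s3x, Nkg7, Cd8a, Cd79b, Ms4a1, Pdgfrb, Cxcl12, Col1a2, Rora and the window letters were chosen after their values were seen. So were Cxcr2, Itgam, Cd79a, Pax5, Ebf1, Igll1, Vpreb1, Tek, Emcn, Esam, Kdr and Pecam1. Alternatives changed the pseudocount, filter, normalization, variance model and probe sets, took the replicate number as a block, or dropped each array in turn. Replicate numbers were not taken as pairing: deviations of same-numbered arrays correlated at 0.11 across genes, over only 2 pairs.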

Additional observations from a re-analysis of the deposited data

How the results depend on the processing

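No member passed under any alternative, and the direction of Maged1 (15 of 15 alternatives, -0.9996 to -0.06) and Mageh1 (16 of 16, 0.37 to 1.03) did not turn. Maged2 turned with median centring (-0.019) and ranged from -0.42 to 0.55 when 1 array was left out; Magee1 ranged from -0.26 to 0.48. Over all genes the median difference was -0.11 after median centring and -0.03 before it, and 35.8% of genes, in place of 45.9%, were above 0. With the replicate block the difference of Maged1 stayed -0.53 (standard error 0.25, limma adjusted p = 0.898) and that of Mageh1 0.70 (adjusted p = 0.905); 3 genes were called (Ddit4, Gas2l3 and Tcl1b3), none a MAGE gene, and 0 with quantile normalization and the block, an alternative added after seeing the data. Leaving out 1 array gave 0 to 4 called genes and 0 to 6 called probe sets; the lone array of a group is assumed to vary like the others. The lowest limma adjusted p of Maged1 over the alternatives was 0.765 and of Mageh1 0.890. Maged1, Maged2 and the second Maged2 probe set could not be measured without _s_at, _x_at and _a_at probe sets, and Magee1 and the second Maged2 probe set did not pass a filter at the 60th percentile. The Ndn difference was below 0 in all 16 alternatives (-5.53 to -1.24).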
